A study of Danio rerio with 2 samples.

Results

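The TGF-β and BMP signalling genes were followed in the livers of zebrafish larvae after knockdown of man1a2, a Golgi mannosidase that trims N-linked glycans. A list of 58 symbols was used, from the secreted ligands through their antagonists, receptors and Smads to the Id target genes, and 54 of the symbols matched 61 of the 31953 gene IDs in the count tables. The remaining 4 symbols, gdf15, nog3, ltbp3 and eng, matched no ID and were not analysed here. The morphant pool was made from larvae injected at the 1-cell stage with a morpholino against man1a2 (man1a2 morphants), and the control pool from uninjected larvae, so effects of injection and of the knockdown cannot be told apart. Both pools were livers taken at 5 days post fertilization, from 3 batches of larvae, and each gave 1 sequencing library. The labels give batches of 100 livers. They list several transgenic lines without saying which fish supplied the livers.

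Both man1a2 morpholinos named in the labels are shown here because they define the knockdown, although which one was injected for the sequenced pool, and how much of it, is not stated there. The capitals mark the bases complementary to the start codon in the first, and those complementary to GTGAGT, a common start of introns, in the second.
man1a2-ATG MO: ccggcgtggtCATattttgatgatc
man1a2-splicing MO: aagaatgtaaACTCACctctctgat

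Ligands of the TGF-β family are secreted dimers that bring together type II and type I receptor kinases. The type I receptor then phosphorylates a receptor-activated Smad, which enters the nucleus with the common partner Smad4 and regulates target genes. TGF-β and activin ligands act mainly through Smad2 and Smad3, and BMPs through Smad1, Smad5 and Smad9. Inhibitory Smads, Smad6 and Smad7, are induced by the pathway and feed back on it, as does the pseudoreceptor BAMBI. In the liver, TGF-β is best known for its effects on stellate cells and the biliary lineage, and BMP signalling for liver specification and, later, for the control of hepcidin.

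The targeted gene, MAN1A2 (ENSDARG00000041728), had 195 reads in morphants and 193 in controls (log2 ratio -0.09, 95% limits -0.39 and 0.20, adjusted p = 0.698 by the exact binomial test). A morpholino blocks translation or splicing and need not lower the count of its target, so this count does not measure the knockdown. The morphant library held 19783886 counts and the control library 19658335. Differences are given as a log2 ratio of normalized counts, morphant over control, with a 95% Clopper-Pearson interval. A gene was called past the read test when an exact binomial test of its reads, 2-sided and adjusted over 15732 genes with at least 10 reads, gave an adjusted p under 0.05 and its fold was at least 1.2. This test compares 2 libraries and not 2 conditions. With 1 library per group there was no replicate, so intervals and adjusted p-values cover counting error only and no difference could be set against the spread between pools. Many member symbols are those of the human gene, and 16 of them are carried by 2 IDs each. These pairs are told apart by ID alone, since the name table does not say which is the a and which the b paralog. For INHBA, BMP1, GREM1, FSTL1, ACVR2B and SMAD4 only the a paralog, or 1 of them, was listed, but both IDs were kept. Some members may therefore be paralogs that are not on the list.

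Of the 61 members, 51 had at least 10 reads and could be tested, of which 10 passed the read test. Reads of 5 were higher and of 5 lower in the morphant library. Over all tested genes, 13.0% were called higher and 13.0% lower, or 26.0% in all, beside 19.6% of the members. The median log2 ratio of the 47 members averaging 10 or more normalized counts was -0.01, beside 0.01 over all 14241 such genes. Members higher past the read test were an INHBA ID, a SMAD6 ID, SMAD7, ID1 and ID2, and those lower were SMAD1, a SMAD3 ID, a TGFBR1 ID, a BMPR2 ID and a BAMBI ID. Together the 61 members held 0.0731% of morphant counts and 0.0689% of control counts. With total counts as the scaling, which raises log2 ratios by about 0.1, the split was 8 higher and 4 lower, beside 20.2% and 9.32% of all genes. When edgeR's exact test was given a biological coefficient of variation of 0.1, SMAD1 was the only member still past the threshold (adjusted p = 7.74e-06), against 6.37% of all genes. Given 0.2 or 0.4, none of the members was past it, against 1.40% and 0.273% of all genes, with 2 and 0 members at an unadjusted p under 0.05.

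**Figure D1:**
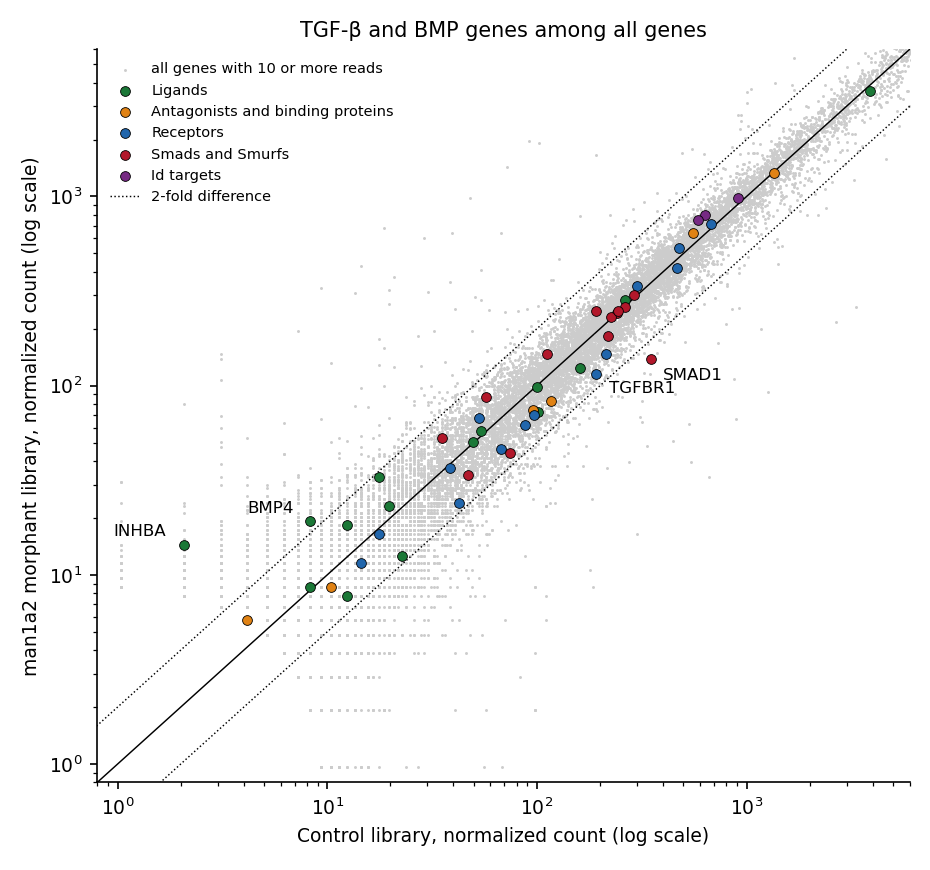
Normalized counts of the morphant library (y axis) against the control library (x axis), both on log scales, with 1 point per gene with at least 10 reads. Members are coloured by tier and lie mostly along the line of equality, while SMAD1, INHBA and BMP4 lie beyond a 2-fold difference (dotted lines). Genes at 0 in a library, and the most abundant genes, lie outside the axes.

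The cell makeup of the pools was examined next, because these genes are used by several liver cell types. All 12 hepatocyte markers were present, with 2098501 reads in morphants and 2178841 in controls, and 5 of them were lower and 0 higher. Those 5 had log2 ratios from -0.27 (fga) to -0.77 (CP), and a gene with very many reads can pass at a small fold. Calls in each list stand beside 13.0% of all genes in each direction. Of the lists with untested IDs, 12 biliary, 10 exocrine pancreas, 8 epidermal, 13 leukocyte, 5 intestinal and 2 skeletal muscle IDs could be tested. The biliary list (13 IDs) summed to 1122 CPM (counts scaled to an equal library total) in morphants and 989.1 in controls, with 1 ID higher, 3 lower and CFTR at 0 reads in controls. Stellate and mesenchymal markers summed to 144.8 CPM in morphants and 103.7 in controls. Of these 13 IDs, 6 were higher and 0 lower past the read test, and none was at 0. Endothelial markers summed to 186.0 CPM in morphants and 194.7 in controls, with 1 of 12 IDs higher, 4 lower and none at 0. Exocrine pancreas markers (11 IDs) summed to 407.5 CPM in morphants and 28.7 in controls, with 10 IDs higher and 1 CPA1 ID and PTF1A at 0 in controls. Epidermal markers (10 IDs) summed to 87.6 CPM in morphants and 16.5 in controls, with 6 higher, krt1-19d at 0 in both libraries and icn2 at 0 in controls. Leukocyte markers (16 IDs) summed to 25.9 CPM in morphants and 168.0 in controls, 8 lower, and without the 6 MFAP4 IDs to 7.58 CPM in morphants and 21.5 in controls. Of that list, 2 MFAP4 IDs were at 0 in both libraries and cd74a was at 0 in morphants. Intestinal markers (9 IDs) summed to 147.9 CPM in morphants and 140.4 in controls, with 1 higher and 2 lower. Most of these reads were of FABP2, with 2550 in morphants and 2415 in controls. The 1 higher was apoa4a, with 111 reads in morphants and 3 in controls, and the 2 lower were ANPEP IDs. VIL1 and 1 SLC15A1 ID were at 0 in both libraries, 1 PYY ID was at 0 in morphants and 1 ANPEP ID at 0 in controls. Skeletal muscle markers (9 IDs) summed to 7.08 CPM in morphants and 3.92 in controls. Only 2 of them had enough reads to test, with 0 past the test. Of this list, 1 TNNT3 ID was at 0 in both libraries, and actc1b, pvalb2 and 1 ACTA1 ID were at 0 in controls. The part of these shifts in the values of the members was not tested. In such bulk pools, fewer cells of a type and less RNA per cell cannot be told apart.

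**Figure D2:**
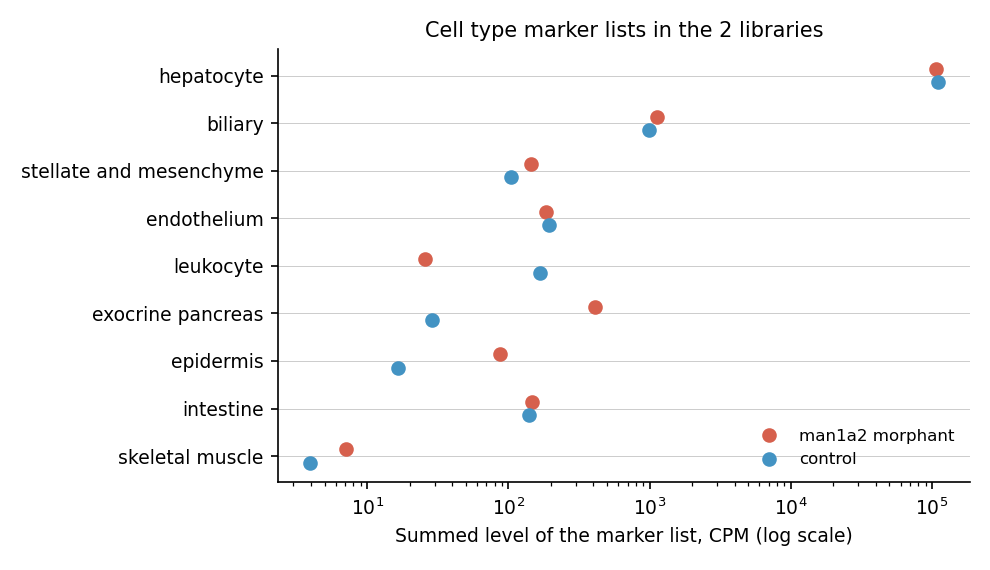
Summed level of each cell type marker list in CPM, on a log scale, in the morphant and the control library. Exocrine pancreas (407.5 CPM in morphants against 28.7 in controls) and epidermis lie higher in morphants. Leukocytes (25.9 CPM in morphants against 168.0 in controls) lie lower. The hepatocyte, biliary, endothelial and intestinal sums nearly overlap, and the intestinal sum is mostly FABP2.

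Among the ligands, most had few reads. Beside 26.0% of all genes, 1 of the 15 IDs tested was past the read test. This was an INHBA ID (ENSDARG00000024759), which encodes a subunit of activin A, with 15 reads in morphants and 2 in controls. Its log2 ratio was 2.54, with 95% limits of 0.69 and 5.97 and an adjusted p = 0.0109 in the exact binomial test. It reached 10 reads through the morphant library alone, and when edgeR's exact test was given a coefficient of variation of 0.1 it had an adjusted p = 0.0524. The other INHBA ID (ENSDARG00000012671) had 6 reads in morphants and 2 in controls and was too low to test. Which of these IDs is the listed inhbaa is not known. INHBB, the other activin β subunit, had 9 reads in morphants and 8 in controls under ENSDARG00000040777 and 0 in both under ENSDARG00000103892.

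The TGF-β ligands proper, all of which signal through TGFBR2 and TGFBR1, were spread on both sides of 0. TGFB3 had 296 reads in morphants and 253 in controls, a log2 ratio of 0.12 (95% limits -0.13 and 0.37). The paralogs tgfb1a and tgfb1b were among the genes the study measured by PCR. The study did not name either among the genes that changed consistently across its batches. In the libraries, the intervals of tgfb1a and tgfb1b lay on opposite sides of no difference. For tgfb1a the library values were 129 reads in morphants and 155 in controls (log2 ratio -0.37, limits -0.72 and -0.03), and for tgfb1b 34 reads in morphants and 17 in controls (0.87, limits 0.01 and 1.82). Neither was past the test adjusted over all genes, with exact binomial adjusted p = 0.0869 for tgfb1a and 0.0944 for tgfb1b. TGFB2 was the lowest of the ligands on the ratio scale, with 13 reads in morphants and 22 in controls (-0.84, limits -1.98 and 0.19). Summed over these 4 genes, reads numbered 472 in morphants and 447 in controls, a log2 ratio of -0.03 (95% limits -0.22 and 0.16). TGFB3 made up 62.7% of that sum in morphants (95% interval 58.2% to 67.1%) and 56.6% in controls (51.9% to 61.2%).

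No BMP or GDF ligand was past the read test, beside 26.0% of all genes, and 8 of the 10 IDs could be tested. BMP4, a ligand with roles in early liver specification, had 20 reads in morphants and 8 in controls (log2 ratio 1.17, limits -0.03 and 2.61). BMP6, which in mice is made by liver endothelium and induces hepcidin, had 75 reads in morphants and 97 in controls. Its log2 ratio was -0.48, with 95% limits of -0.93 and -0.03, but its exact binomial adjusted p was 0.0872. BMP2 had 102 reads in morphants and 96 in controls for ENSDARG00000013409 (log2 ratio -0.02), and 24 in morphants and 19 in controls for ENSDARG00000041430 (0.22). BMP5 had 52 reads in morphants and 48 in controls (log2 ratio 0.01). For bmp7a there were 60 in morphants and 52 in controls (0.10). Fewer reads fell on BMP7, with 8 in morphants and 12 in controls, and on gdf6a, with 19 in morphants and 12 in controls. GDF5 and gdf6b were at 0 in both libraries. At these depths a moderate change could be missed, as the interval for BMP5 alone ran from -0.59 to 0.60.

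BMP1 is listed with the ligands by name, although it encodes a metalloprotease that cleaves procollagen and the BMP antagonist chordin. ENSDARG00000028071 had 3730 reads in morphants and 3733 in controls. After scaling, its log2 ratio was -0.11, with 95% limits of -0.17 and -0.04. The exact binomial adjusted p was 0.0053, but the fold lay under 1.2, so it was not past the test. The second BMP1 ID (ENSDARG00000028053) had 4 reads in morphants and 5 in controls.

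The classical BMP antagonists were scarcely sequenced. Chordin (chrd) had 1 read in each library. Noggin 2 (nog2) had 2 reads in morphants and 0 in controls, and each of the follistatin IDs (FST), whose protein binds activin, had 1 read in morphants and 0 in controls. GREM1 had 6 reads in morphants and 4 in controls under ENSDARG00000029546 and 0 in both under ENSDARG00000104618. No difference in these genes was detectable at this depth.

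The antagonist tier was therefore carried by FSTL1, BAMBI and LTBP1, and 1 of its 6 tested IDs was past the read test, beside 26.0% of all genes. BAMBI encodes a transmembrane protein that resembles a type I receptor without a kinase, and its 2 IDs lay on opposite sides of 0. ENSDARG00000099677 had 86 reads in morphants and 113 in controls, a log2 ratio of -0.50 (95% limits -0.92 and -0.08, adjusted p = 0.0487 by the exact binomial test). The more abundantly sequenced ENSDARG00000055381 had 662 reads in morphants and 532 in controls, a log2 ratio of 0.21 (95% limits 0.04 and 0.38). That ID had an exact binomial adjusted p of 0.0437 but a fold under 1.2. Which of the pair was called depended on the scaling, since under total counts the tier had 1 ID higher and 0 lower and ENSDARG00000099677 had an adjusted p = 0.125 by the exact binomial test. FSTL1, a secreted glycoprotein related to follistatin, had 1385 reads in morphants and 1295 in controls under ENSDARG00000039576 (log2 ratio -0.01, limits -0.12 and 0.10), and 9 in morphants and 10 in controls under ENSDARG00000015559. LTBP1, which holds latent TGF-β in the matrix, had 77 reads in morphants and 92 in controls (-0.36, limits -0.82 and 0.09).

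Receptor genes were all tested, and 10 of the 14 IDs had ratios below 0, with a median log2 ratio of -0.24. Of all 15732 tested genes, 7682 lay below 0. Past the read test were 0 receptor IDs higher and 2 lower (14.3% of the tier), beside 13.0% of all genes in each direction. Under total counts the median was -0.14, beside 0.11 over all genes, and 9 IDs lay below 0. With that scaling 1 higher and 2 lower were past the test, beside 20.2% and 9.32% of all genes. The summed endothelial markers were slightly below, and the mesenchymal markers above, their control levels in morphants, and their part in the receptor values was not tested. TGFBR1, the type I receptor for TGF-β, gave the lowest adjusted p of the tier. ENSDARG00000017494 had 119 reads in morphants and 185 in controls (log2 ratio -0.74, limits -1.09 and -0.40, adjusted p = 7.01e-05 by the exact binomial test), while its partner ENSDARG00000042259 had 38 reads in morphants and 37 in controls. In edgeR's exact test given a coefficient of variation of 0.1, the first had an adjusted p = 0.0709.

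BMPR2, the type II receptor specific to BMPs, was the other called receptor. ENSDARG00000020057 had 152 reads in morphants and 205 in controls (log2 ratio -0.54, limits -0.85 and -0.23, adjusted p = 0.0024 by the exact binomial test). Its second ID, ENSDARG00000011941, lay in the same direction with 25 reads in morphants and 41 in controls (-0.81, limits -1.60 and -0.07), at an exact binomial adjusted p of 0.0734. The BMP type I receptor BMPR1A had 433 reads in morphants and 448 in controls under ENSDARG00000019728, and 73 in morphants and 93 in controls under ENSDARG00000105045. Both had log2 ratios below 0, at -0.16 and -0.45, with intervals that included 0. The related bmpr1ba had 17 reads in each library.

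TGFBR2, the type II receptor for TGF-β, had IDs on either side of 0, neither past the test. Reads numbered 350 in morphants and 290 in controls for ENSDARG00000034541 (log2 ratio 0.16, limits -0.06 and 0.39) and 48 in morphants and 65 in controls for ENSDARG00000059363 (-0.54, limits -1.11 and 0.02). ACVR2B, a type II receptor for activins that BMPs also use, had 70 reads in morphants and 51 in controls under ENSDARG00000044422 (0.35) and 64 in morphants and 85 in controls under ENSDARG00000103108 (-0.51, limits -1.01 and -0.03). Neither ACVR2B ID was past the test. ACVR2A had 557 reads in morphants and 458 in controls (0.17, limits -0.01 and 0.36) and was called higher under total counts. The BMP type I receptor acvr1l, required for ventral fates in the zebrafish embryo, had 741 reads in morphants and 652 in controls (0.08, limits -0.08 and 0.23). TGFBR3, the co-receptor betaglycan, had 12 reads in morphants and 14 in controls.

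**Figure D3:**
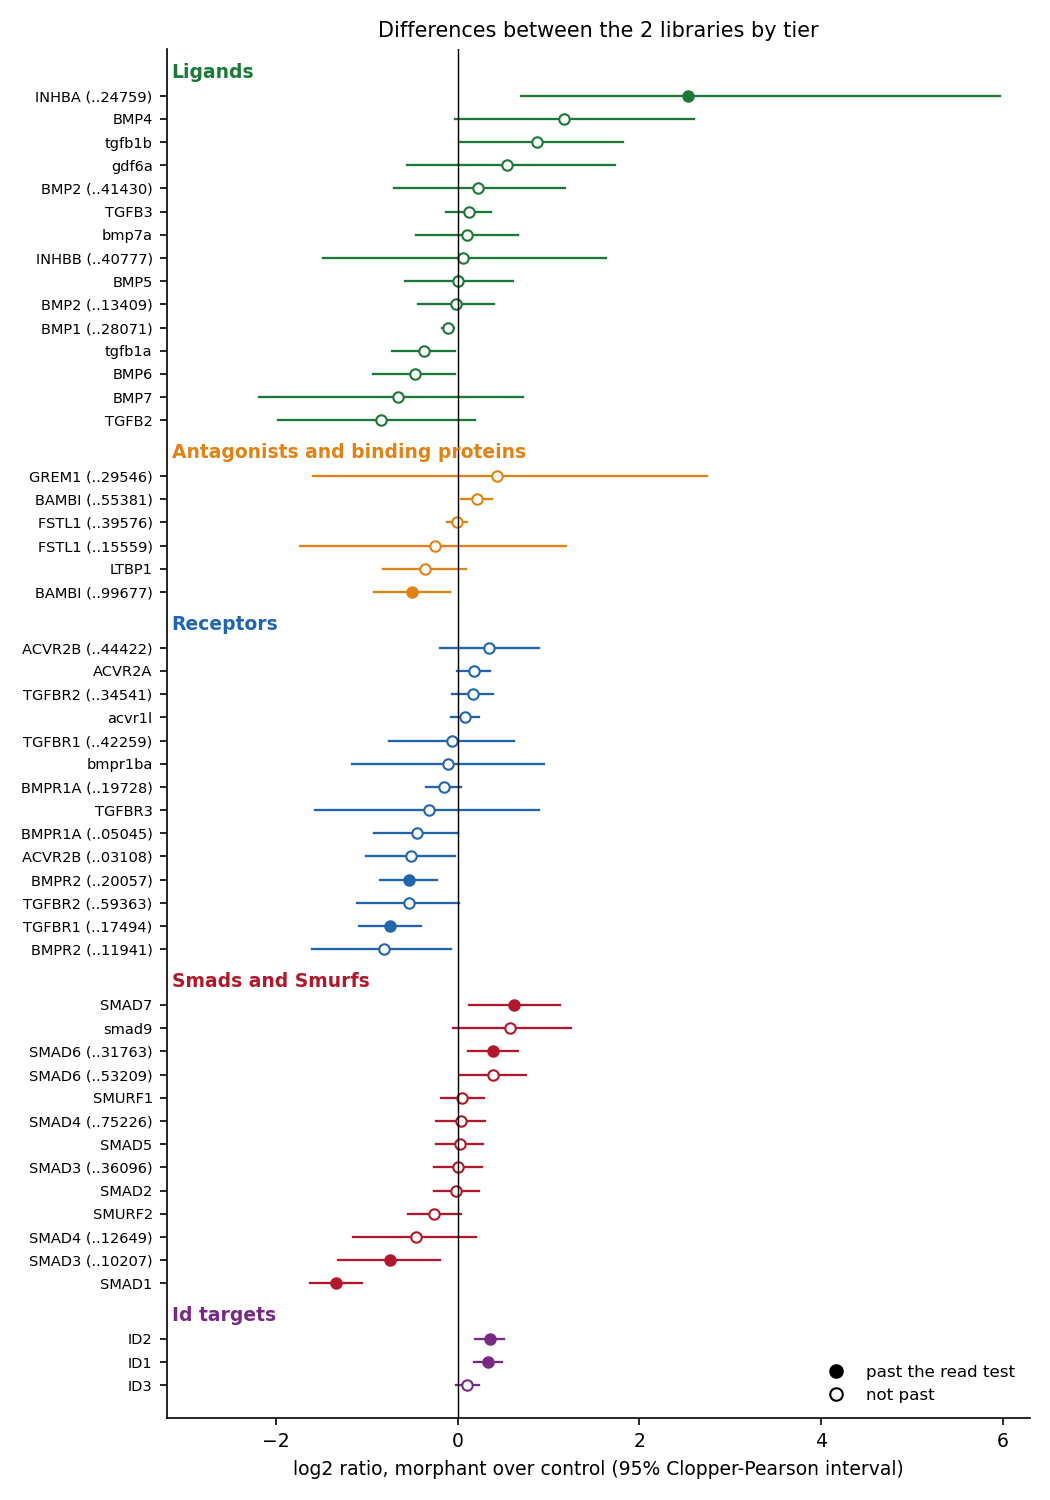
The log2 ratio of morphant over control (x axis) with its 95% Clopper-Pearson interval for the 51 tested member IDs, ordered within each tier, with the last 5 digits of the ID where a symbol is shared. Filled points are past the read test. SMAD1 lies at -1.34 with an interval that stays below -1, and the Id genes and inhibitory Smads lie above 0.

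In the Smad tier, 2 of 13 IDs were called higher and 2 lower (30.8% in all), beside 13.0% of all genes in each direction (26.0% in all). SMAD1, a BMP-activated Smad that the study had named from these same libraries, had 143 reads in morphants and 336 in controls. Its log2 ratio was -1.34, with 95% limits of -1.63 and -1.05 and an adjusted p = 6.21e-21 in the exact binomial test, and 3.88% of the 14241 genes averaging 10 or more normalized counts lay as far from 0 or farther. Among the 47 members with such a mean it was 1 of 2 that differed by 2-fold or more, with BMP4, against 7.44% of all genes. Its closest relatives were not past the test. SMAD5 had 258 reads in morphants and 236 in controls (0.02, limits -0.24 and 0.28), and smad9 had 55 in morphants and 34 in controls (0.58, limits -0.06 and 1.25, adjusted p = 0.161 by the exact binomial test).

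Read shares within this family differed between the libraries accordingly. SMAD1 took 31.4% of the reads of the 3 genes in morphants (95% Clopper-Pearson interval 27.1% to 35.8%) and 55.4% in controls (51.4% to 59.5%). SMAD5 took 56.6% in morphants and 38.9% in controls, and smad9 12.1% in morphants and 5.61% in controls. These are shares of reads and not of transcripts, since no gene lengths were applied. Summed over the 3 genes there were 456 reads in morphants and 606 in controls, a log2 ratio of -0.52 (95% limits -0.70 and -0.34). The SMAD1 value did not meet the threshold when edgeR's exact test was given a coefficient of variation of 0.2 (adjusted p = 0.121) or under a dispersion fitted to both libraries as 1 group (adjusted p = 0.660).

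Of the Smads activated by TGF-β and activin, 1 SMAD3 ID was past the test. SMAD2 had 270 reads in morphants and 253 in controls (log2 ratio -0.01, limits -0.27 and 0.24). SMAD3 had 251 reads in morphants and 233 in controls under ENSDARG00000036096, with limits of -0.26 and 0.26, and 46 in morphants and 72 in controls under ENSDARG00000010207. ENSDARG00000010207 was lower past the read test, with a log2 ratio of -0.75 (limits -1.32 and -0.20, adjusted p = 0.0207 by the exact binomial test). It took 8.11% of the reads of SMAD2 and the SMAD3 pair in morphants and 12.9% in controls. Over the 3 IDs there were 567 reads in morphants and 558 in controls, a log2 ratio of -0.08 (95% limits -0.26 and 0.09). The common partner SMAD4 had 240 reads in morphants and 218 in controls under ENSDARG00000075226 and 35 in morphants and 45 in controls under ENSDARG00000012649, with intervals that included 0.

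Of the 3 inhibitory Smad IDs, 2 were higher in morphants past the read test, beside 13.0% of all genes. The study measured smad7 and smad9 by PCR and reported both as raised by the knockdown in every batch tested. The choice to give them in full was therefore not independent of that work. The sequenced pools were made from those batches, so both readouts share their material. SMAD7, which blocks type I receptors, had 91 reads in morphants and 55 in controls. Its log2 ratio was 0.61, with 95% limits of 0.12 and 1.13 and an adjusted p = 0.041 in the exact binomial test. This lay close to the threshold, and under upper-quartile factors SMAD7 was not past it. SMAD6, which acts mainly on BMP signals, had 259 reads in morphants and 184 in controls under ENSDARG00000031763 (0.38, limits 0.11 and 0.67, adjusted p = 0.0213 by the exact binomial test). Its other ID, ENSDARG00000053209, had 152 reads in morphants and 108 in controls and the same log2 ratio of 0.38 (limits 0.02 and 0.75), with an exact binomial adjusted p of 0.092. Summed, the 3 IDs had 502 reads in morphants and 347 in controls, a log2 ratio of 0.43 (95% limits 0.22 and 0.63). The ubiquitin ligases of this tier, which mark Smads and receptors for degradation, were not past the test. SMURF1 had 312 reads in morphants and 280 in controls (0.05), and SMURF2 had 189 in morphants and 210 in controls (-0.26, limits -0.55 and 0.03).

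The Id genes encode helix-loop-helix proteins that lack a DNA-binding domain, and they are widely used as readouts of BMP signalling. All 3 had log2 ratios above 0, as had 8050 of the 15732 tested genes, and 2 were called higher, beside 13.0% of all genes. ID1 had 827 reads in morphants and 611 in controls (log2 ratio 0.33, limits 0.18 and 0.48, adjusted p = 0.000136 by the exact binomial test). ID2 had 781 in morphants and 568 in controls (0.35, limits 0.19 and 0.51, adjusted p = 7.56e-05 by the exact binomial test). ID3 had 1021 reads in morphants and 880 in controls (0.11, limits -0.02 and 0.24), and its difference was not past the test. The median of the 3 was 0.33. Differences of this size were common in these libraries, as 41.9% of the 14241 genes lay as far from 0 as ID1 or farther. In edgeR's exact test given a coefficient of variation of 0.1, neither ID1 (adjusted p = 0.476) nor ID2 (adjusted p = 0.442) was past the threshold.

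**Figure D4:**
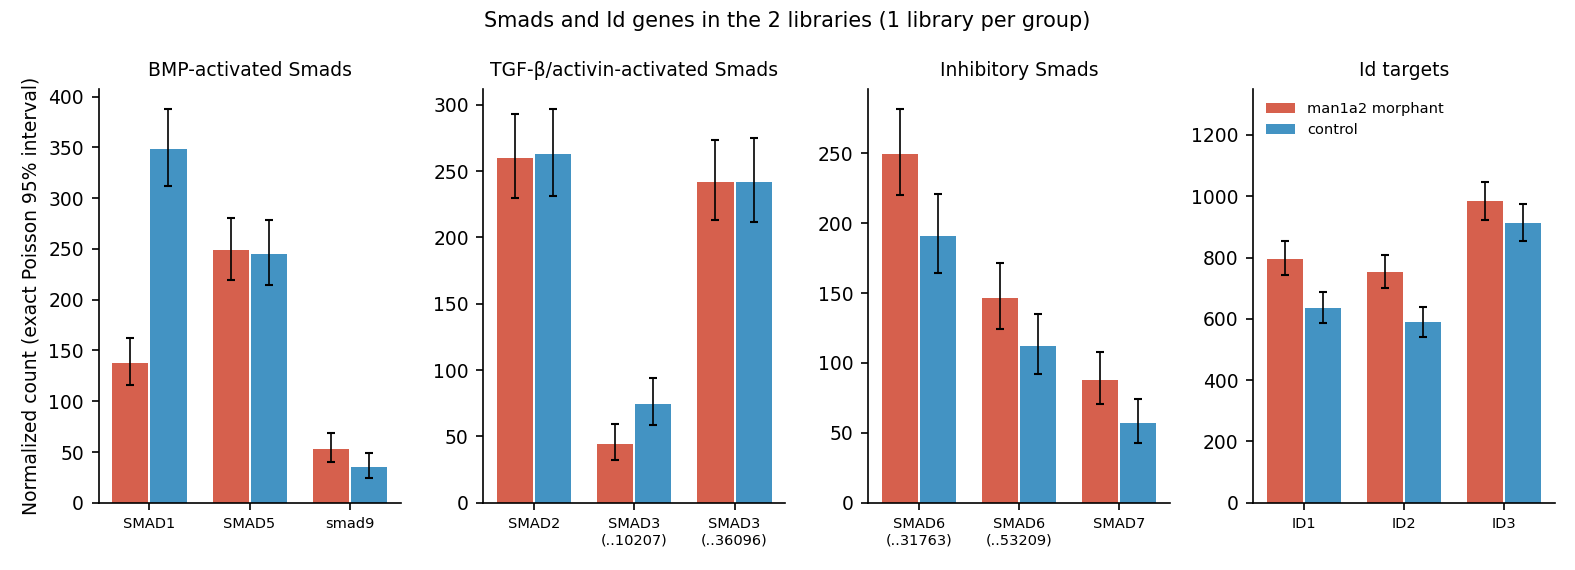
Normalized counts of the Smad and Id genes in the morphant (left bar) and control library (right bar) with exact Poisson 95% intervals, which cover counting error only. SMAD1 has the widest gap. Of its relatives, SMAD5 is nearly level (log2 ratio 0.02) and smad9 is higher in morphants without passing the read test. Each inhibitory Smad and Id gene has its taller bar in morphants.

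To set the members against the rest of the pathway, another 125 symbols were listed, of which 114 matched and gave 108 further IDs. Of these, 72 could be tested, and 9 were higher and 11 lower past the read test. That was 27.8% of those tested, close to the 26.0% of all genes. The median log2 ratio over the 65 averaging 10 or more normalized counts was -0.14, beside 0.01 over all such genes. Under total counts these medians were -0.04 and 0.11. With that scaling the split was 11 higher and 5 lower, beside 20.2% and 9.32% of all genes. None of the 5 tested further ligands was past the read test, and bmp16 had the most reads of these, with 352 in morphants and 291 in controls.

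The wider list held a group of regulators of the ligands, with 13 tested IDs. Past the read test were 3 higher and 2 lower, beside 13.0% of all genes in each direction. THBS1, whose protein can release active TGF-β from its latent complex, was higher under both of its IDs. ENSDARG00000010785 had 96 reads in morphants and 36 in controls (log2 ratio 1.30, limits 0.74 and 1.90, adjusted p = 1.07e-05 by the exact binomial test), and ENSDARG00000103775 had 67 in morphants and 38 in controls (0.70, limits 0.12 and 1.32). The secreted protease HTRA1 had 25 reads in morphants and 7 in controls under ENSDARG00000014907 (1.66, limits 0.48 and 3.18) and 72 in morphants and 59 in controls under ENSDARG00000032831 (0.18), which was not past the test. CRIM1, a transmembrane protein that binds BMPs, was lower with 26 reads in morphants and 55 in controls (-1.17, limits -1.92 and -0.49). FURIN, a convertase that cleaves the precursors of many ligands of this family, had 426 reads in morphants and 604 in controls under ENSDARG00000070971 (-0.61, limits -0.79 and -0.43). Its more abundantly sequenced ID, ENSDARG00000062909, had 1476 reads in morphants and 1529 in controls (-0.16, limits -0.26 and -0.05) and was not past the test. The mesenchymal marker sum was also higher in morphants, as given above, and its part in these values was not tested.

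Of the receptors in the wider list, acvr2ab was lower, with 33 reads in morphants and 67 in controls (log2 ratio -1.12, limits -1.78 and -0.51, adjusted p = 0.0011 by the exact binomial test). It is a type II activin receptor and the named relative of ACVR2A, whose log2 ratio was 0.17. The Ski and SnoN repressors hold Smad complexes inactive on DNA. SKIL, which encodes SnoN, was lower at 19 reads in morphants and 50 in controls (-1.48, limits -2.35 and -0.72). Its listed paralog skilb had 66 reads in morphants and 52 in controls (0.23, limits -0.31 and 0.79) and was not past the test. Of the Ski genes, skib was higher with 34 reads in morphants and 15 in controls (1.05, limits 0.16 and 2.06). SKI had 155 in morphants and 117 in controls (0.30, limits -0.06 and 0.66) and was not past the test. The corepressor TGIF1 had 109 reads in morphants and 66 in controls (0.61, limits 0.16 and 1.08), and PPM1A, a phosphatase that acts on Smads, had 67 in morphants and 97 in controls under ENSDARG00000043250 (-0.64, limits -1.11 and -0.18). The other PPM1A ID, ENSDARG00000032155, had 213 reads in morphants and 240 in controls (-0.28, limits -0.55 and -0.01) and was not past the test.

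Further target genes did not all follow ID1 and ID2. Of 15 tested IDs in this group, 5 had log2 ratios above 0 and 10 below, with a median of -0.16 over the 13 averaging 10 or more normalized counts. The read test called 3 higher and 2 lower, beside 13.0% of all genes in each direction. The id2b gene, the listed paralog of ID2, had 64 reads in morphants and 36 in controls (log2 ratio 0.71, limits 0.11 and 1.35, adjusted p = 0.0497 by the exact binomial test). Under TMM or upper-quartile factors neither id2b, skib nor the second THBS1 ID was past the test. JUNB, a transcription factor gene of the AP-1 family, had 546 reads in morphants and 386 in controls under ENSDARG00000104773 (0.39, limits 0.20 and 0.58). Its other ID, ENSDARG00000074378, had 134 reads in morphants and 148 in controls (-0.25, limits -0.60 and 0.10) and was not past the test. By comparison, hamp, which encodes hepcidin and is induced by BMP6 and by inflammation in mammals, had 568 reads in morphants and 1427 in controls. Its log2 ratio was -1.44, with 95% limits of -1.58 and -1.30 and an adjusted p = 1.5e-97 in the exact binomial test, farther from 0 than that of any of the 47 members averaging 10 or more normalized counts. In edgeR's exact test hamp stayed past the threshold given a coefficient of variation of 0.1 (adjusted p = 8.56e-09) but not given 0.2 (adjusted p = 0.0507), and it was past it under the dispersion fitted to both libraries as 1 group, where 0.744% of all genes were. HJV, a BMP co-receptor needed for hepcidin expression in mammals, had 621 reads in morphants and 512 in controls (0.17, limits -0.00030 and 0.34). The symbol tmprss6 matched no ID. BMP6 and hamp both had log2 ratios below 0, BMP6 without passing the test, and a link between their values was not tested. Leukocyte markers, whose sum is given above, were lower in the same library, and their part in the hamp value was not tested.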

How the data were processed

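Poly-A selected, strand-marked libraries were sequenced from 1 pool of morphant livers and 1 pool of control livers. The authors deposited raw counts, whole numbers of reads per Ensembl gene, without normalization. The submitters' processing notes name FastQC, DESeq2 and genome build GRCz10, and the aligner and counting program are not given in the sources used here. Reads of near-identical paralogs may be split by that counting. Symbols were paired with 26121 of 31953 IDs (81.7%) and matched to the list without regard to case, then without a final a or b. No sequence or length of the members was used.

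Counts were scaled by the size factors of DESeq2 1.42.0 in R 4.3.3. Log2 ratios carry a pseudocount of 0.5, and their intervals none. With 1 library per group, edgeR's quasi-likelihood test could not be fitted, so an exact binomial test was used, with Benjamini-Hochberg adjustment, the read minimum of 10 and fold of 1.2 given in the report. It was tested on simulated data with counting error only. These data hold no spread between pools, so they cannot show how the calls stand against that spread. Alternatives used the TMM and upper-quartile factors and the exact test of edgeR 4.0.16. The members and lists were chosen with earlier results of these data known. Members past the test and those the study measured are given in full. Other pathway genes are given if past the test with a fold of at least 1.5. Outside that rule, JUNB (fold 1.31), bmp16, HJV and the second IDs or paralogs of named genes are also given, so they are not a full set. No column of sample values was left unused. The values of 1 other target gene are not reported here.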

Additional observations from a re-analysis of the deposited data

How the results depend on the processing

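No paired analysis was possible because neither group had a second library. The count of 10 members past the read test stayed within 1.5 times under the other scalings, read minimums of 1 and 100, no minimum fold and thinning to equal totals. The totals were nearly equal already, so thinning removed few reads and tested little. The count was 2 with a minimum fold of 2 (INHBA and SMAD1), beside 1068 of all 15732 tested genes. Among the 29 IDs with an unambiguous symbol, of which GDF5, gdf6b, chrd and nog2 had too few reads to test, the count was 4. In edgeR's exact test it was 1, 0 and 0 given a coefficient of variation of 0.1, 0.2 and 0.4, and 0 under the dispersion fitted to both libraries as 1 group, beside 2 members at an unadjusted p under 0.05 with 0.2, 0 with 0.4 and 1 under the fitted dispersion. The 20 other pathway genes, of 72 tested, became 7 with a minimum fold of 2. In edgeR's exact test they became 4, 0 and 0 with 0.1, 0.2 and 0.4, and 1, hamp, under the fitted dispersion. At an unadjusted p under 0.05 there were 6 and 0 with 0.2 and 0.4. Of all genes, edgeR's exact test called 6.37%, 1.40% and 0.273% with 0.1, 0.2 and 0.4, and 0.744% under the fitted dispersion. How pools of 1 condition vary was not measured. The cause of differences between scalings was not tested. The members' median log2 ratio of -0.011 was -0.026 with TMM factors, -0.038 with upper-quartile factors and 0.088 with total counts, against 0.11 over all genes. It was 0.0078 over all members with at least 1 read, 0.026 over those averaging 100 or more normalized counts and 0.048 over those with an unambiguous symbol, and no error of this median was computed. None of the 13 members given in full changed sign under an alternative run, but almost none of these runs could change a sign. The scalings shifted log2 ratios by 0.098 at most, and ID1, the nearest to 0 of the 13, lay at 0.33. A larger pseudocount cannot reverse a ratio. Read minimums, minimum folds and edgeR's exact test leave the ratio unchanged. Under a read minimum of 1, BAMBI and SMAD7 were not past the exact binomial test (adjusted p = 0.0618 and 0.052). Alternatives for single members beyond scaling and pseudocount were chosen after seeing the data.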
